A study of Mus musculus with 8 samples.

Results

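The 10 genes described here encode enzymes that turn cholesterol into bile acids and join them to an amino acid: Cyp7a1, Cyp7b1, Cyp8b1, Cyp27a1, Cyp39a1, Hsd3b7, Akr1d1, Acox2, Slc27a5 and Baat. They were chosen by name, as every probe set that the array annotation pairs with exactly 1 of these genes, which gave 14 probe sets of 22690 and 10 genes of 12393 measured. All 10 genes passed the filter on low values that left 7534 genes for testing. Livers came from 4 wild-type (WT) and 4 TrxR1/Gsr-null mice, all female, 4 weeks old and on a C57BL/6J background, and each liver was hybridised to 1 Affymetrix expression array. TrxR1 (gene Txnrd1), a thioredoxin reductase of the cytosol, and glutathione reductase (Gsr) keep thioredoxin and glutathione in reduced form. No treatment was given to either group, all livers were taken in a single late-morning period, and the labels do not state which part of each gene was removed or in which liver cells. The submitters' title names the response of Nrf2, the transcription factor that induces genes acting against oxidants.

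Bile acids are made in hepatocytes by 2 routes. The classic route begins with Cyp7a1, the rate-limiting hydroxylase of cholesterol, and the alternative route begins with the mitochondrial hydroxylase Cyp27a1, whose oxysterol products are hydroxylated by Cyp7b1. Bile acids returning to the liver repress Cyp7a1 and Cyp8b1 through the receptor FXR (Nr1h4), its target SHP (Nr0b2) and a hormone signal from the gut, and Cyp7a1 transcription also follows the daily clock.

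Values are log2 expression per probe set as deposited, and differences are TrxR1/Gsr-null minus WT on that scale. A gene was called when limma's p, adjusted over all 7534 genes by the Benjamini-Hochberg method, was below 0.05. Probe sets differ in affinity, so no gene's level is set against another's. Arrays hold no read depth. Precision is limited by having 4 livers in each group, and it also differs between probe sets.

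The arrays differed in quality in ways that touch several values below. WT replicates 3 and 4 had the narrowest distributions (interquartile ranges of 3.97 and 3.74 log2 units where the remaining 6 arrays had 4.31 to 4.44), and replicates 1 and 2 differed from replicates 3 and 4 in both genotypes. Gsr fell by 1.15 on the log2 scale, with means of 7.16 ± 0.09 and 6.01 ± 0.22 (SD, n = 4 each; adjusted p = 0.00397), while Txnrd1 was higher, at 9.82 ± 0.17 and 11.92 ± 0.19 (adjusted p = 0.000115). Without knowing the removed part of Txnrd1, this probe set does not check the label. The 6 measured of 8 listed hepatocyte markers were bright in all 8 livers and none was called. All 6 were lower on average in the null livers, with a summed level (log2 of the summed unlogged values) of 16.13 to 16.35 in WT and 15.60 to 16.14 in the null livers. For bile duct markers, where 5 of 7 were measured and 3 of these had both group means below the low-value limit of 3.38, the summed level was 5.0 to 5.66 in WT and 5.32 to 5.69 in the null livers. Epcam was called higher, though its 4 WT values lay below that limit and it passed the filter through its null values, and the other tested duct marker, Sox9, differed by -0.19 (adjusted p = 0.743). The 7 Kupffer cell markers summed to 12.29 to 13.08 and 11.997 to 12.53 and the 7 endothelial markers to 10.81 to 11.12 and 10.60 to 11.03, with no call in either list. These sums mostly follow the brightest markers, Cd5l and Clec4g. Gene by gene, 5 of 7 Kupffer cell and 6 of 7 endothelial markers were lower on average in the null livers. Their median differences were -0.49 and -0.60, beside 0.096 over all genes tested. All 6 tested stellate cell markers were also lower on average (median difference -0.16). The 2 tested blood cell markers were higher, S100a8 by 1.30 without overlap (limma adjusted p = 0.0541) and Ptprc by 0.27. No stellate or blood cell marker was called. In bulk tissue fewer cells of a type and less RNA per cell cannot be told apart, and the part of cell makeup in the results was not tested.

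Of the 10 enzymes, 2 were higher in TrxR1/Gsr-null liver, Cyp7b1 and Acox2, and none was called lower. Over all genes tested, 6.62% were called, 4.47% higher and 2.15% lower. The members' median difference was 0.47, with 6 positive and 4 negative, beside a median of 0.096 over all genes tested. At an unadjusted p below 0.05 there were 4 members, the called 2 and the uncalled Cyp39a1 and Akr1d1, where 22.9% of all genes tested passed the same limit. Values of one genotype lay wholly apart from those of the other for 2 of 10 members and for 16.6% of all genes tested.

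**Figure D1:**
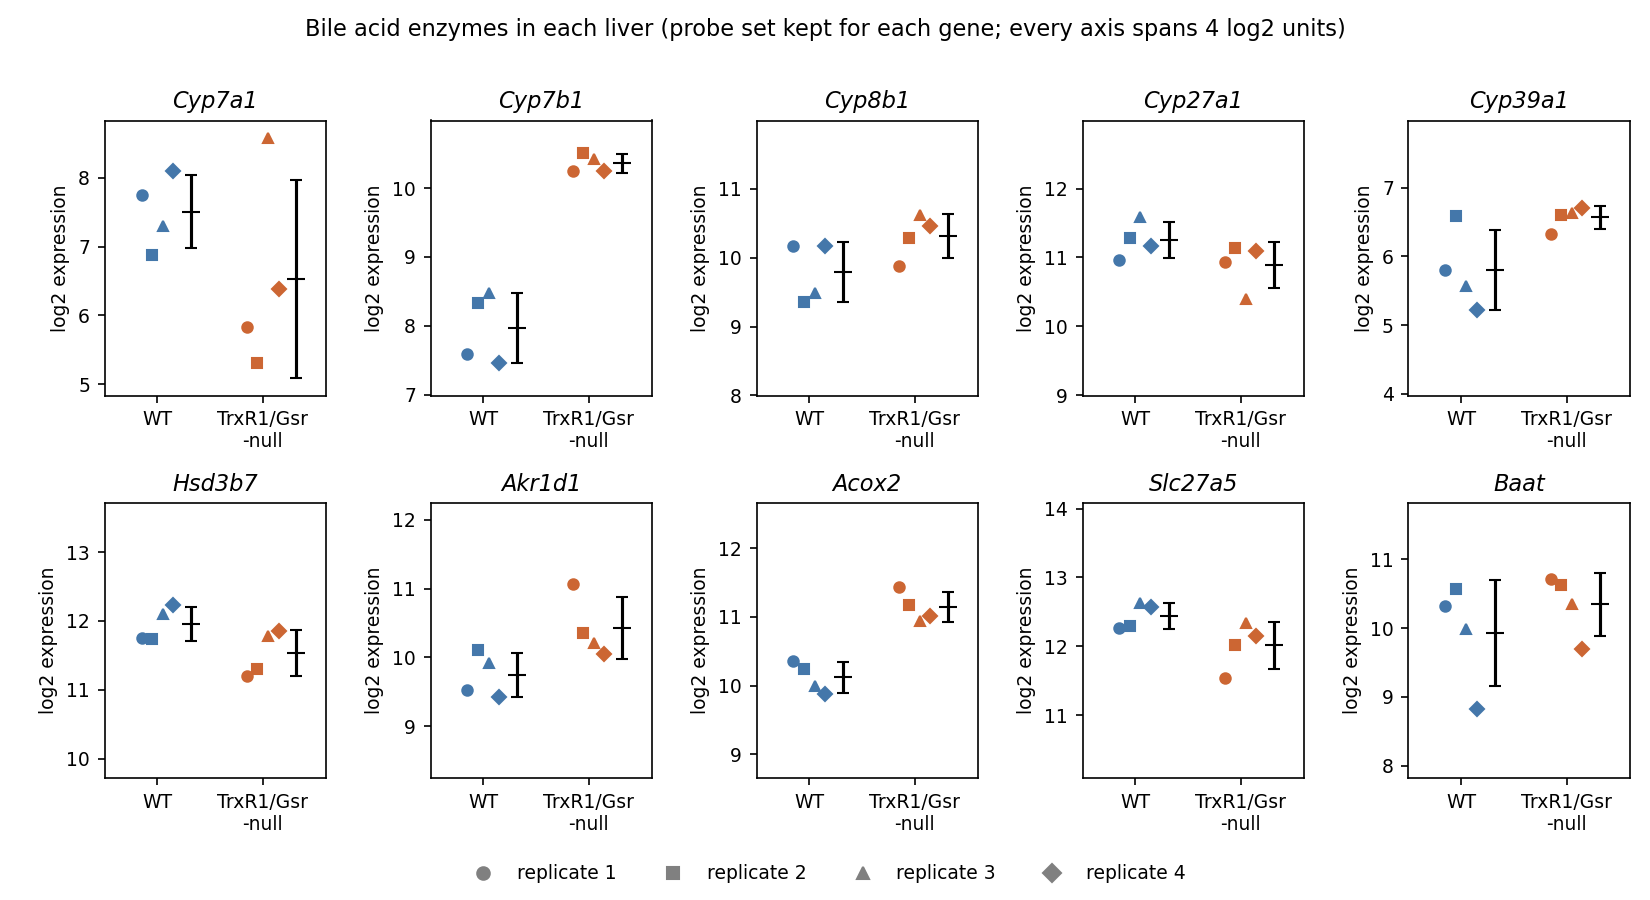
Log2 expression of the 10 enzymes in each of the 8 livers, 1 panel per gene, with WT in blue, TrxR1/Gsr-null in orange, marker shapes for replicate numbers, and bars for the mean and SD of 4 livers. Cyp7b1 and Acox2 are the genes whose groups do not overlap, and in the Cyp7a1 panel 3 null livers lie below all WT livers and 1 lies above them.

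The first enzyme of the classic route, Cyp7a1, had its 4 WT values at 7.76, 6.88, 7.29 and 8.10 (replicates 1 to 4) and its 4 null values at 5.83, 5.31, 8.58 and 6.38. Null replicates 1, 2 and 4 were each below the lowest WT liver, and null replicate 3 was above the highest. The group means were 7.51 ± 0.53 and 6.52 ± 1.44 (SD, n = 4 each), and the difference of -0.98 (95% interval -2.33 to 0.37) was not called (adjusted p = 0.376). That interval includes both no difference and a fall of 2.33 on the log2 scale. Without null replicate 3 the difference was -1.67 and was called lower (limma adjusted p = 0.0304), so this 1 liver decides the call. Within replicates 1 and 2 alone it was -1.75 (limma adjusted p = 0.0362), and within replicates 3 and 4 alone -0.21 (limma adjusted p = 0.886).

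The dimmer Cyp7a1 probe set read 5.45, 4.61, 4.23 and 3.87 in WT replicates 1 to 4 and 4.69, 3.83, 5.63 and 3.15 in the null livers. Null replicate 3 was again the highest of all 8 livers, but the other null livers were not separated from WT. Its difference was -0.22 (95% interval -1.38 to 0.95; adjusted p = 0.871 over all 22626 probe sets other than controls, of which 2.97% were called). WT replicate 4 was the highest WT liver in the first probe set and the lowest in the second, so the probe sets did not rank the WT livers alike. Null replicate 3 also had the largest distance between the 3′ and 5′ Actb probe sets, a sign of RNA quality, at 1.76 log2 units, the other arrays being between 1.01 and 1.57. The same distance at the Gapdh probe sets did not set it apart, at -0.35. There the other arrays ran from -0.70 (null replicate 4) to -0.23 (WT replicate 4). Whether RNA quality bears on the Cyp7a1 value of null replicate 3 was not tested.

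Cyp8b1, the hydroxylase that directs intermediates to cholic acid, stood at 10.18, 9.36, 9.48 and 10.17 in WT and 9.88, 10.29, 10.63 and 10.46 in the null livers. Of the null livers 3 were above all WT livers, and replicate 1 lay within their range. The difference was 0.52 ± 0.26 (SE; 95% interval -0.05 to 1.09) and was not called (adjusted p = 0.261).

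On the alternative route, Cyp27a1 gave 10.96, 11.28, 11.59 and 11.17 in WT and 10.94, 11.13, 10.39 and 11.09 in the null livers. The groups overlapped, with null replicate 3 the lowest of the 8. The difference was -0.36 (95% interval -0.85 to 0.13; adjusted p = 0.371) and was -0.20 without null replicate 3.

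Cyp7b1, which hydroxylates oxysterols such as those made by Cyp27a1, was the member with the largest change. Its values were 7.59, 8.33, 8.47 and 7.46 in WT replicates 1 to 4 and 10.25, 10.51, 10.43 and 10.25 in the null livers. Every null liver exceeded every WT liver, and the null livers were close to each other (SD 0.13) beside the WT livers (SD 0.51). The mean rose from 7.96 to 10.36, a log2 difference of 2.40 ± 0.25 (SE; 95% interval 1.84 to 2.95) or 5.27-fold, with adjusted p = 0.000457. This difference ranked 44th from the highest among 7534 genes. Its second probe set is of a kind that can match several transcripts and read 5.37, 6.67, 7.81 and 7.19 in WT and 8.71, 9.18, 9.70 and 9.0 in the null livers. It too separated the genotypes, by 2.39 ± 0.46 (SE), or 5.23-fold, and was called over all probe sets (adjusted p = 0.0247). Cyp7b1 remained called when any 1 array was left out (limma adjusted p from 0.000809 to 0.00272), and within replicates 1 and 2 alone (2.42, limma adjusted p = 0.00907) and replicates 3 and 4 alone (2.37, limma adjusted p = 0.0375).

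The genes whose pattern over the 8 livers was most like that of Cyp7b1, by the root mean square difference after each gene was centred on its own mean, were B4galt6 (0.25 log2 units), Heph (0.33) and Entpd5 (0.34). B4galt6, a galactosyltransferase that makes lactosylceramide, rose from 3.76 ± 0.45 to 5.97 ± 0.14 (SD, n = 4 each). Heph, the copper ferroxidase hephaestin, rose from 3.92 ± 0.21 to 6.79 ± 0.22, and Entpd5, a nucleoside diphosphatase of the endoplasmic reticulum, from 9.41 ± 0.10 to 11.60 ± 0.15. Likeness here is of differences between livers, not of level, and rests on 8 arrays.

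Cyp39a1, a hydroxylase of oxysterols made outside the liver, chiefly in brain, read 5.81, 6.59, 5.56 and 5.22 in WT and 6.32, 6.60, 6.64 and 6.70 in the null livers. WT replicate 2 lay among the null livers, and the other WT livers lay below all of them. The difference was 0.77 (95% interval 0.16 to 1.38; unadjusted p = 0.0185 by limma) and did not pass the adjustment (adjusted p = 0.129). Without WT replicate 2 it was 1.03 and was called (limma adjusted p = 0.028). Without WT replicates 3 and 4 it was 0.37 (limma adjusted p = 0.459).

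Whether Cyp7b1 changed unlike Cyp7a1 and Cyp27a1, and Cyp8b1 unlike Cyp7a1, was asked within each array, where a shift common to the whole array cancels. The first steps of the routes, Cyp7a1 and Cyp27a1, were not compared with each other. Cyp7b1 minus Cyp7a1 was -0.16, 1.45, 1.17 and -0.64 in WT and 4.42, 5.21, 1.85 and 3.86 in the null livers. No null liver overlapped the WT livers, null replicate 3 being the nearest to them. The quantity was higher by 3.38 in the null livers, with an exact two-sided permutation p of 0.0286, the smallest that 4 against 4 can give, and 0.0429 adjusted over 3 such comparisons. Cyp7b1 minus Cyp27a1 was higher by 2.76 (exact permutation p = 0.0286, adjusted 0.0429), from -3.29 ± 0.33 to -0.53 ± 0.39 (SD, n = 4 each), also without overlap. Cyp7b1 by itself differed by 2.40 without overlap, and neither Cyp7a1 nor Cyp27a1 was called. Both comparisons therefore repeat the Cyp7b1 difference in large part. With the same-numbered livers taken as pairs, the exact sign-flip test of 4 pairs cannot pass the threshold and gave an adjusted p of 0.188 for both, so neither difference was called with the replicate block. Leaving out any 1 WT liver lifted the adjusted exact permutation p of both to 0.0857, with the sizes at 2.62 or more. For Cyp8b1 minus Cyp7a1 the WT mean was 2.29 ± 0.19 and the null mean 3.79 ± 1.24, a difference of 1.502 (exact permutation p = 0.143, adjusted 0.143). Null replicates 1, 2 and 4 were at 4.06, 4.99 and 4.07, above all WT livers, and replicate 3, at 2.04, was below them all. Without that liver the difference was 2.08 (exact permutation, adjusted p = 0.0286).

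**Figure D2:**
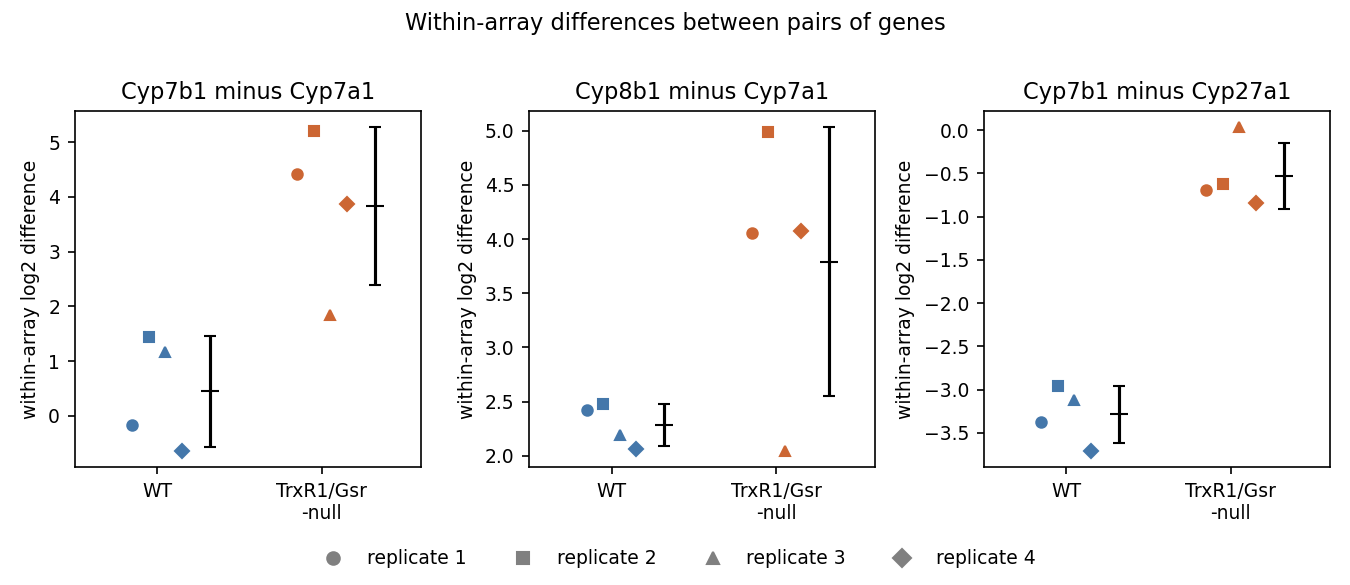
Within-array log2 difference between pairs of genes in each liver, with marker shapes for replicate numbers and bars for the mean and SD of 4 livers. Cyp7b1 minus Cyp7a1 and Cyp7b1 minus Cyp27a1 separate the genotypes, and in Cyp8b1 minus Cyp7a1 null replicate 3, at 2.04, lies just below the WT livers.

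The ring-modifying enzymes Hsd3b7 and Akr1d1 differed in opposite directions without a call. Hsd3b7, which oxidises and isomerises the hydroxylated sterols of all routes, read 11.76, 11.74, 12.10 and 12.23 in WT and 11.20, 11.31, 11.78 and 11.86 in the null livers. In both genotypes replicates 3 and 4 were higher than replicates 1 and 2, so the groups overlapped although each null liver was below the WT liver of the same number, by 0.56, 0.43, 0.32 and 0.37. The difference was -0.42 (95% interval -0.90 to 0.06; adjusted p = 0.285). With replicates 1 and 2 against 3 and 4 as a block its SE fell from 0.22 to 0.14, and it was still not called (limma adjusted p = 0.0739).

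Akr1d1, the reductase that sets the bent ring shape of bile acids, stood at 9.53, 10.11, 9.92 and 9.42 in WT and 11.07, 10.36, 10.21 and 10.05 in the null livers. Null replicate 1 was the highest, and replicate 4 was below the highest WT liver. The difference was 0.68 (95% interval 0.10 to 1.25; adjusted p = 0.154), and 0.27 at its dimmer probe set (95% interval -0.39 to 0.93), where the groups overlapped more widely.

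Acox2, the peroxisomal oxidase that starts the shortening of the bile acid side chain, was the other enzyme that rose. It read 10.36, 10.24, 10.00 and 9.88 in WT replicates 1 to 4 and 11.43, 11.17, 10.94 and 11.02 in the null livers. The lowest null liver was 10.94 and the highest WT liver 10.36, so the groups did not overlap, and the 4 same-numbered differences were alike, at 1.07, 0.93, 0.94 and 1.14. The mean rose from 10.12 ± 0.22 to 11.14 ± 0.22 (SD, n = 4 each), a difference of 1.02 ± 0.19 (SE; 95% interval 0.60 to 1.44) or 2.03-fold, with adjusted p = 0.0111. Leaving out any 1 array kept the call (limma adjusted p from 0.0137 to 0.0403). The call was lost without WT replicates 3 and 4 together (0.84, limma adjusted p = 0.0606) and within replicates 3 and 4 alone (1.04, limma adjusted p = 0.0883).

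Promoter sequence was looked up because the series is about the Nrf2 response and Acox2 was called higher. RefSeq (GRCm38.p6) entries matched 5 of the 10 genes, with 6 windows of 300 bases, from 250 before to 50 after an annotated start. Cyp7a1, Cyp7b1, Cyp39a1, Slc27a5 and Baat had no entry. The core of the antioxidant response element, the letters that Nrf2 binds with a small Maf protein, was searched as TGACNNNGC on both strands, and a site of LRH-1 (Nr5a2), a receptor that drives Cyp7a1 and Cyp8b1, as CAAGGNCA on both strands. Of all 32851 windows in the table, 12.4% held the first and 6.71% the second. The Acox2 window held the first motif on the opposite strand at positions -13 to -5 from the upstream start, where it overlaps the letters of an AP-1 site. The same bases lie at -193 to -185 from a second annotated start. In the Cyp8b1 window the first motif was at -151 to -143 on the opposite strand and the second at -60 to -53. Cyp27a1, Akr1d1 and Hsd3b7 had neither set of letters in their windows. The bases before the start of Acox2, which was called, and of Cyp8b1, which was not, are shown because both hold the first motif, with matches in capitals. They lie at chr14:8259020-8259269 and chr9:121916306-121916555, both on the minus strand.
Acox2: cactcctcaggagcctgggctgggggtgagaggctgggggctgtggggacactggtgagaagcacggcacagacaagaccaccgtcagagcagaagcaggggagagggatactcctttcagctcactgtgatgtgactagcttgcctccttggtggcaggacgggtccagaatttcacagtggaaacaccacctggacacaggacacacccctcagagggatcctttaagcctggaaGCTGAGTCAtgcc
Cyp8b1: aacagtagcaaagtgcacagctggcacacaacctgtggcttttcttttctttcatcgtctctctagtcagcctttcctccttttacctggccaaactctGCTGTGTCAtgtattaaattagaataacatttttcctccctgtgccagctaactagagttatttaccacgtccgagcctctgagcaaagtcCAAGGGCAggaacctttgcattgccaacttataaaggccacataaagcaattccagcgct
A match describes these letters only and no binding was measured.

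The conjugation steps showed no call. Slc27a5, the ligase that joins bile acids to coenzyme A, read 12.26, 12.29, 12.63 and 12.58 in WT and 11.53, 12.02, 12.34 and 12.15 in the null livers. Of the null livers 3 were below all WT livers, and replicate 3 lay within their range. The difference was -0.43 (95% interval -0.90 to 0.04; adjusted p = 0.264), and all 4 same-numbered differences were negative. Without null replicate 1 it was -0.27. Baat, which then transfers the bile acid to taurine or glycine, stood at 10.32, 10.56, 9.99 and 8.83 in WT and 10.71, 10.63, 10.35 and 9.69 in the null livers at its brighter probe set. That probe set is of the kind that can match several transcripts. In both genotypes replicate 4 was the lowest and the groups overlapped (difference 0.42, 95% interval -0.41 to 1.25; adjusted p = 0.552). The difference was 0.052 without WT replicate 4 alone, and without WT replicates 3 and 4 the sign turned, to -0.099. The other Baat probe set gave 5.99 ± 0.21 and 6.33 ± 0.33 (SD, n = 4 each), a difference of 0.34 (95% interval -0.09 to 0.78), and did not have replicate 4 as the lowest WT liver.

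**Figure D3:**
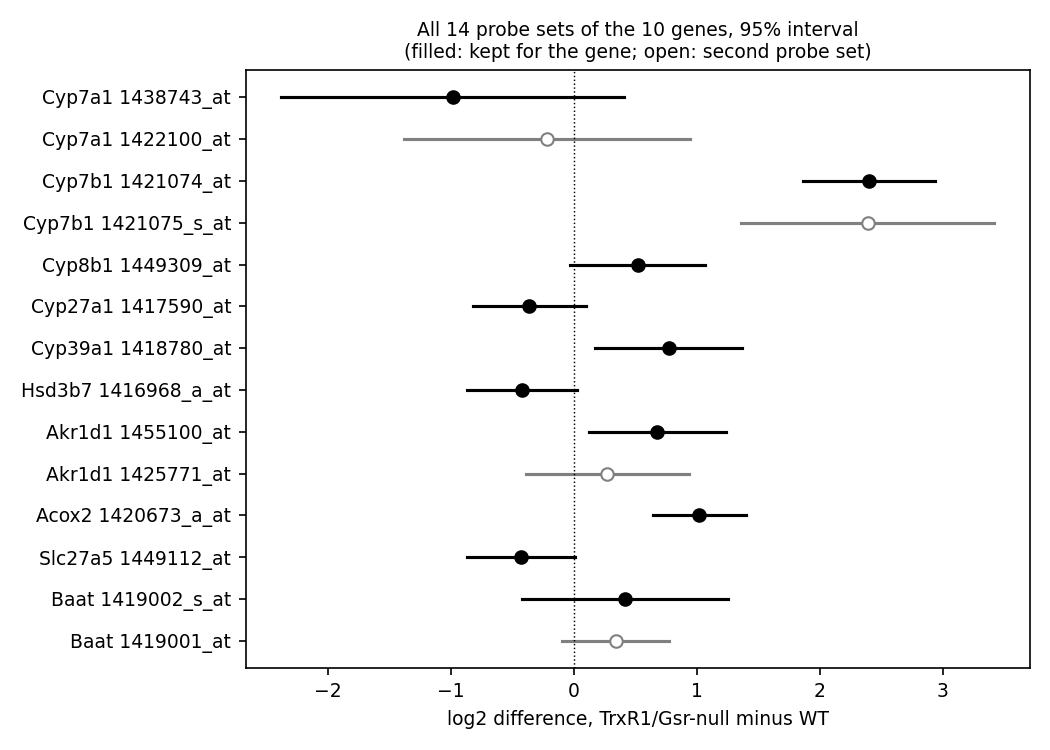
Log2 difference with its 95% interval for all 14 probe sets of the 10 genes, from the fit over all probe sets other than controls, with filled points for the probe set kept for each gene. Both Cyp7b1 probe sets lie near 2.39, and the Cyp7a1 probe sets lie at -0.98 and -0.22.

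Replicate number moved with several of these enzymes. Replicates 3 and 4 lay wholly on the same side of replicates 1 and 2 in both genotypes for 4 of the 10 members, higher for Hsd3b7 and Slc27a5 and lower for Acox2 and Baat, as they did for 27.6% of all genes tested. Differences between same-numbered livers were positive in 4 of 4 numbers for Cyp7b1, Cyp39a1, Akr1d1, Acox2 and Baat, and negative in 4 of 4 for Cyp27a1, Hsd3b7 and Slc27a5. Cyp7a1 was negative in 3 of 4 and Cyp8b1 positive in 3 of 4. With the replicate number as a block no member gained or lost a call.

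**Figure D4:**
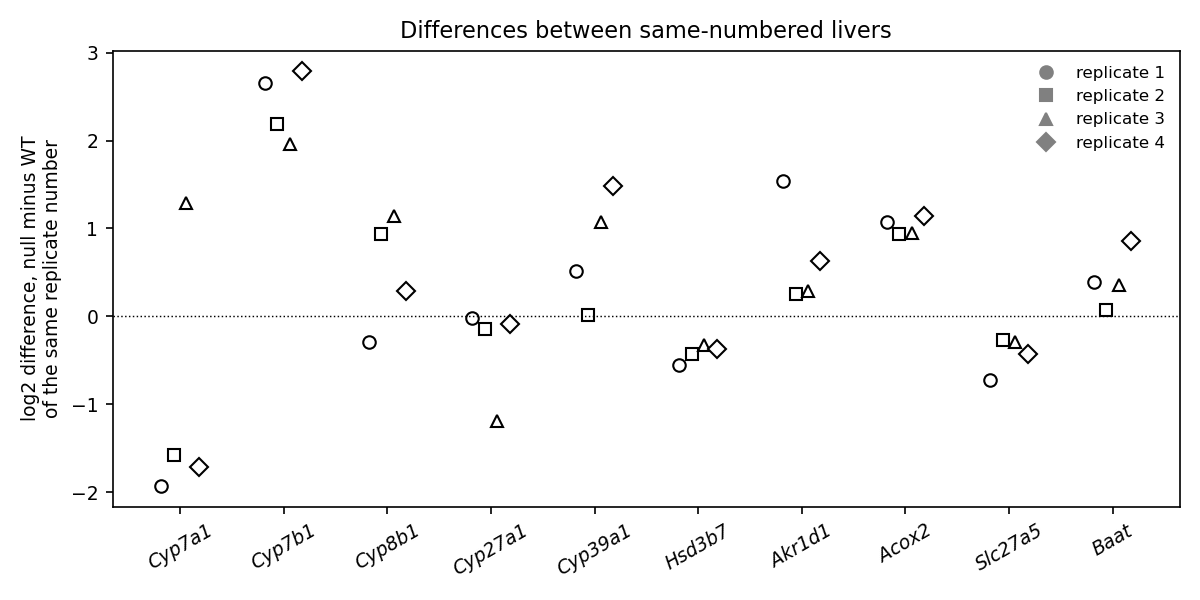
Log2 difference between the null and the WT liver of the same replicate number for the 10 enzymes, with marker shapes for the numbers. Acox2 lies between 0.93 and 1.14 in all 4, whereas Cyp7a1 is at 1.29 for number 3 and between -1.93 and -1.58 for the others.

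Other genes of bile acid synthesis were fixed as a list of 12, of which 11 were measured and 9 tested. None of the 9 was called in either direction, at a median difference of -0.20, and 3 had an unadjusted limma p below 0.05, as did 22.9% of all genes tested. Akr1c14, the hydroxysteroid dehydrogenase that acts after Akr1d1, read 11.15, 11.39, 11.75 and 11.16 in WT and 12.35, 11.99, 12.09 and 11.85 in the null livers, without overlap (difference 0.71 ± 0.20 SE; adjusted p = 0.0653). It was called in 4 other settings (limma adjusted p from 0.0157 to 0.0454). These were each gene taken as the mean of its probe sets, a trended and robust prior, array weights, and replicates 1 and 2 against 3 and 4 as a block. With the mean of probe sets its own difference stayed at 0.71, so no further probe set of Akr1c14 bears on that call. Slc27a2, another ligase of very long chain fatty acids and bile acid precursors, was 13.10 ± 0.19 in WT and 12.51 ± 0.11 in the null livers (SD, n = 4 each; difference -0.59, adjusted p = 0.0695). It was called in the same 4 settings (limma adjusted p from 0.0112 to 0.0394), its difference also unchanged by the mean of probe sets. Amacr, the racemase that prepares the side chain for Acox2, averaged 10.50 and 10.10 without overlap (difference -0.40, adjusted p = 0.187). Ch25h and Cyp46a1, which make other oxysterols, were below the low-value limit and were not tested, with group means of 2.02 to 2.31.

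Among regulators of the pathway, 13 of 15 listed genes were tested, and Dbp was called lower and none higher, at a median difference of -0.26. Of all genes tested, 2.15% were called lower and 4.47% higher. Dbp, a clock-controlled activator of Cyp7a1, read 7.31, 6.03, 7.82 and 6.18 in WT and 3.77, 5.38, 4.00 and 5.60 in the null livers. Every null liver was below every WT liver, but replicates 1 and 3 differed far more (-3.54 and -3.83) than replicates 2 and 4 (-0.65 and -0.58). The difference was -2.15 ± 0.51 (SE; adjusted p = 0.0341). This probe set is of the kind that can match several transcripts. With such probe sets left out, Dbp differed by -1.74 and was still called (limma adjusted p = 0.0485). Dbp was no longer called with the replicate block (limma adjusted p = 0.0591), with no filter on low values (limma adjusted p = 0.0543), and without WT replicate 1 or 3 or null replicate 1 or 3 (-1.99, -1.82, -1.85 and -1.92; limma adjusted p from 0.0626 to 0.099). Nor was it called in the smaller sets of livers (limma adjusted p of 0.104 without WT replicates 3 and 4, 0.0943 in replicates 1 and 2 alone and 0.131 in replicates 3 and 4 alone). In the first of these sets, and in replicates 1 and 2 alone, 1 regulator other than Dbp was called lower. The livers in which Dbp was lowest, null replicates 1 and 3, were at 5.83 and 8.58 for Cyp7a1.

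The receptors that carry bile acid feedback were not called. Nr1h4, encoding FXR, was 9.54 ± 0.26 in WT and 9.07 ± 0.19 in the null livers (SD, n = 4 each), without overlap (difference -0.47, adjusted p = 0.185). Nr0b2, encoding the repressor SHP, varied widely among WT livers, at 7.62, 9.48, 8.15 and 6.17, and stood at 8.20, 8.39, 7.72 and 7.60 in the null livers. Its difference was 0.12 (95% interval -1.13 to 1.38; adjusted p = 0.931). The 4 WT livers ranked in opposite order in Nr0b2 and in the brighter Cyp7a1 probe set, from replicate 2 (highest Nr0b2, lowest Cyp7a1) through 3 and 1 to 4 (lowest Nr0b2, highest Cyp7a1). Among the null livers replicate 2 was again the highest in Nr0b2 and the lowest in Cyp7a1, followed by replicate 1, but replicate 3 was higher than replicate 4 in both genes. The dimmer Cyp7a1 probe set did not give this order, which was noticed in the values and not tested. Nr5a2, encoding LRH-1, differed by -0.11 (95% interval -0.68 to 0.46; adjusted p = 0.850).

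Of 12 listed transporters of bile acids and cholesterol 10 were tested, with 2 called higher and 1 lower and a median difference of -0.19. Over all genes tested, 4.47% were called higher and 2.15% lower. Abcc3, an efflux pump that returns bile acids and conjugates to the blood, read 9.80, 10.12, 10.14 and 10.17 in WT and 11.52, 11.78, 11.57 and 11.64 in the null livers, without overlap (2.97-fold, adjusted p = 0.000529). Abcc2, the canalicular pump for organic anions, averaged 10.14 ± 0.20 and 11.32 ± 0.18 (SD, n = 4 each; 2.26-fold, adjusted p = 0.0045). The Abcc2 probe set is of the kind that can match several transcripts. Slco1a4, an uptake carrier, fell from 9.92 ± 0.60 to 7.33 ± 0.26 (5.99-fold lower, adjusted p = 0.000704).

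Abcb11 and Slc10a1, the main bile acid carriers of the 2 hepatocyte surfaces, were lower on average and neither was called in the fit of all livers without blocks or weights. Slc10a1 was not called in any alternative either. Abcb11, the bile salt export pump, read 11.29, 11.59, 11.38 and 11.54 in WT and 9.77, 10.50, 11.12 and 10.89 in the null livers, without overlap (difference -0.88, adjusted p = 0.0914). It was called lower with array weights (limma adjusted p = 0.0154), with replicates 1 and 2 against 3 and 4 as a block (limma adjusted p = 0.0396) and within replicates 1 and 2 alone (-1.31, limma adjusted p = 0.0458). Abcb11 was not called with the replicate block (limma adjusted p = 0.058) or within replicates 3 and 4 alone (-0.45, limma adjusted p = 0.354). Slc10a1, the sodium-dependent uptake carrier, was 12.31 ± 0.15 and 11.91 ± 0.10 (SD, n = 4 each), also without overlap (difference -0.40, adjusted p = 0.179). Slco1a1, another uptake carrier, read 6.30, 7.15, 9.83 and 4.93 in WT and 2.85, 2.83, 7.25 and 3.51 in the null livers. Replicate 3 was the highest liver of each genotype, and in the null group it stood far above the others, as it did for Cyp7a1. The difference of -2.94 (adjusted p = 0.160) was -3.99 without null replicate 3 and was then called (limma adjusted p = 0.048), and it was also called with the replicate block (limma adjusted p = 0.00765). Slco1b2, a further uptake carrier, differed by 0.13 (95% interval -0.23 to 0.49).

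**Figure D5:**
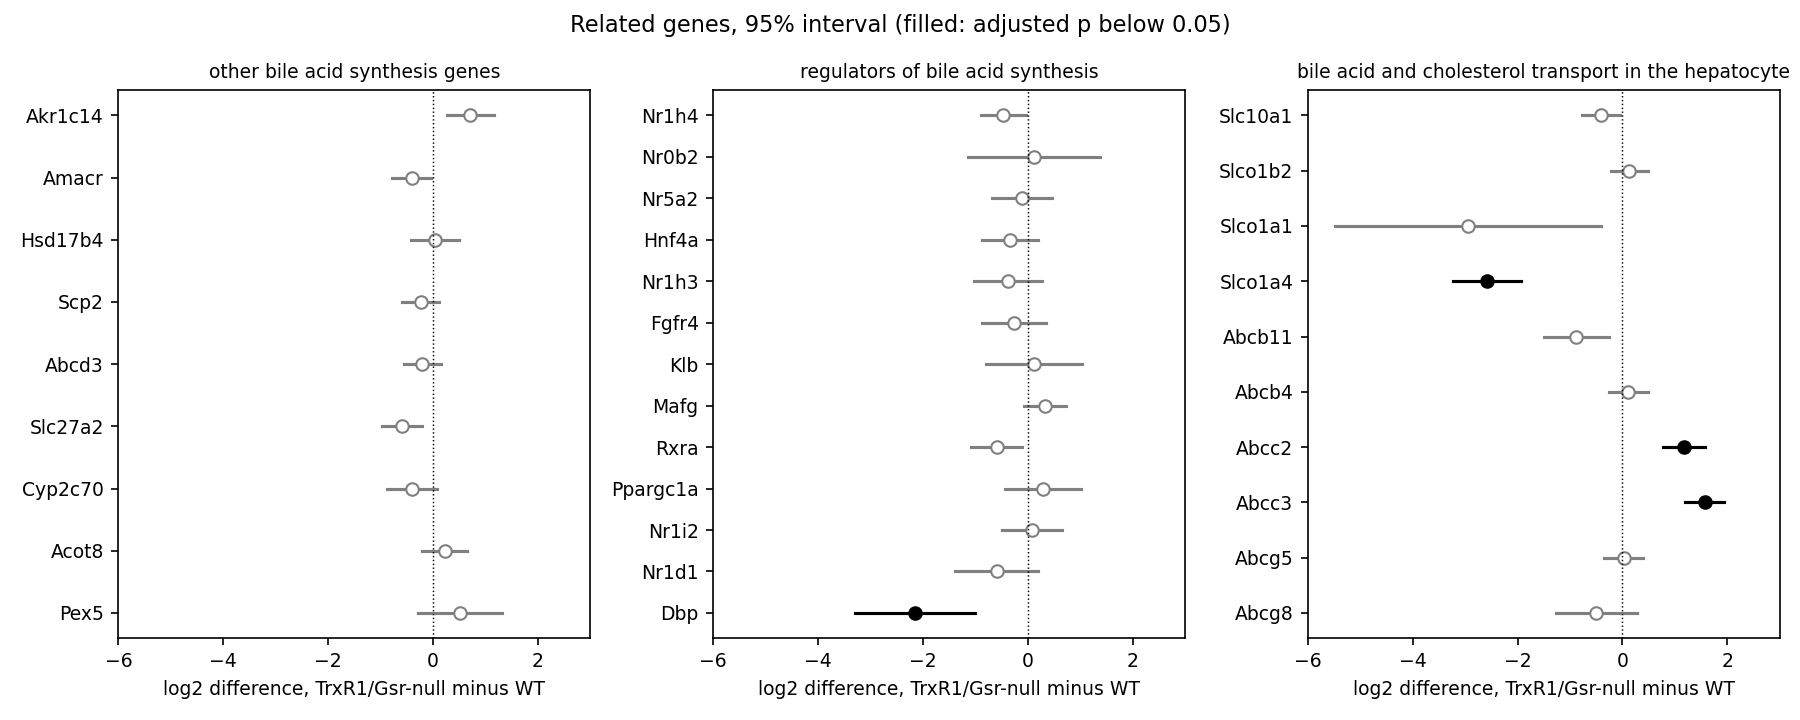
Log2 difference with its 95% interval for tested genes of 3 related lists, with filled points for those called at an adjusted p below 0.05. Abcc2 and Abcc3 lie to the right of 0 and Slco1a4 and Dbp to the left, and no other bile acid synthesis gene is filled.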

How the data were processed

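Liver RNA of 8 mice was measured on 1 array each. The deposited log2 values come from GCRMA, per the submitters' processing notes, a method that corrects background and pulls dim values together. No version is given in the sources used here. That the deposited numbers are log2 was judged from their range, 0.53 to 14.6. Each probe set was named through the platform annotation (20380 with 1 gene, 691 with several, 1555 with none, 64 controls) and symbols were updated through RefSeq. Per gene the brightest probe set was kept (_x_at only if no other), and the lowest 40% of genes by mean were dropped unless 4 or more arrays lay above the limit of 3.38. The genotypes were tested with limma 3.58.1 under R 4.3.3 (lmFit, eBayes, two-sided, no covariates), a fit checked on simulated data. There it called 2.39% of true changes of 0.5 log2 units, 43.1% of those of 1 and 88.3% of those of 2. An uncalled gene is therefore not shown to be unchanged. Simulated arrays were drawn independently, without the differences between replicate numbers seen here. Fits of single probe sets used all 22626 that are not controls, with no filter.

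The members and lists were chosen with earlier results of these data known. Named genes were all members, every called gene of the related lists, the first 3 of each list and the 3 genes most like Cyp7b1. Slc27a2, Amacr, Abcb11 and the marker genes named were added after their values were seen. Replicate numbers come from the sample titles. The titles do not state that same-numbered livers belong together, and the fit behind the calls did not pair them. Their deviations from the group means correlated at 0.21 to 0.37 for all 4 numbers, and the replicate number served as a block in an alternative fit. Livers of different numbers were not compared in this way, so the correlations do not show that same-numbered livers belong together. That blocked fit is printed beside a result whose call it alters. No 2 arrays were identical. Alternatives were the filter, the probe sets, the scaling, the prior, array weights, blocks and left-out arrays.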

Additional observations from a re-analysis of the deposited data

Results flagged for a closer look

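Abcc3 in WT replicate 1, at 9.80, stood apart from the other WT livers, which were between 10.12 and 10.17 (its gap was 0.847 of the group's range). It was the 1 such value among 42 groups of 4 livers checked, and chance flags about 1 in 20 groups. Abcc3 stayed called higher when any 1 array was left out.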

How the results depend on the processing

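Cyp7b1 kept its direction and call in all 21 alternatives, from 2.23 to 2.57. Acox2 kept its call in 19 and was not called without WT replicates 3 and 4 (0.84) or within replicates 3 and 4 alone (1.04), where members called higher numbered 1 in each. Leaving out 1 array gave 2 to 3 members called higher and 0 to 1 lower. Cyp7a1 ranged from -1.67 to -0.58 and Cyp39a1 from 0.58 to 1.03 with 1 array left out, and replicates 1 and 2 alone gave 1 member called lower (Cyp7a1, -1.75). Baat turned to -0.099 without WT replicates 3 and 4. The causes, the lower power of fewer livers among them, were not tested.

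Of the other synthesis genes, 1 was called higher and 1 lower with the mean of probe sets, a trended and robust prior, array weights, or replicates 1 and 2 against 3 and 4 as a block. Regulators called lower numbered 0 with no filter, with the replicate block and in replicates 3 and 4 alone, 2 with array weights (Dbp and 1 other), and 0 to 1 with an array left out. Without WT replicates 3 and 4, and in replicates 1 and 2 alone, the count was 1, a gene other than Dbp. Transporters called higher numbered 1 without _x_at and _s_at probe sets, which leaves out the Abcc2 probe set, and 1 in replicates 3 and 4 alone. Transporters called lower numbered 3 with array weights and in replicates 1 and 2 alone, 2 with either block, and 1 to 2 with an array left out.

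Within arrays, with 1 array left out Cyp7b1 minus Cyp7a1 ranged from 2.92 to 4.04, Cyp8b1 minus Cyp7a1 from 1.10 to 2.08 and Cyp7b1 minus Cyp27a1 from 2.57 to 2.87. With the replicate block the sizes stay at 3.38 and 2.76 and the exact sign-flip test of 4 pairs cannot pass the threshold (adjusted p = 0.188). A further quantile normalization moved the median of all genes by -0.11 and changed no call or sign among members.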

Other observations

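Genes that mark the zones of the liver lobule were listed because bile acid enzymes differ between zones. Of the pericentral markers, 6 were tested and none called, at a median difference of -0.11. Glul, glutamine synthetase of the cells around the central vein, differed by -0.14 (adjusted p = 0.833) and Cyp2e1, a pericentral cytochrome, by -0.39 (adjusted p = 0.338). Rhbg, an ammonium transporter, was higher by 0.87 without overlap between the groups (adjusted p = 0.0633), and Cyp1a2, another pericentral cytochrome, by 0.48 (adjusted p = 0.342). Of 5 periportal markers tested, 2 were called lower by limma, where 2.15% of all genes tested were called lower. The called markers were Hal, the histidine ammonia-lyase (2.60-fold lower, adjusted p = 0.00263), and Pck1, a gluconeogenic enzyme (2.35-fold lower, adjusted p = 0.027). Cyp2f2, another periportal marker, differed by -0.0016 (adjusted p = 0.998) and Arg1, arginase, by 0.054 (adjusted p = 0.883).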
